A study of Mus musculus with 2 samples.

Results

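The cells described here were C1q-high Lyve1-low macrophages from the ear skin of mice with IgE-dependent chronic allergic inflammation (IgE-CAI). They were chosen from the deposited read counts by a fixed rule on transcripts. A barcode had to have at most 20% mitochondrial reads and at least 200 genes. Levels were reads per 1000000 reads of the barcode (CPM). A member had at least 300 CPM of Csf1r, Cd68, Ms4a6c and Ms4a7 together, under 3000 CPM of the collagen gene Col1a1 and under 5000 CPM of the neutrophil genes S100a8 and S100a9 together, which formed the monocyte-macrophage gate. It also had at least 3000 CPM of C1qa, C1qb and C1qc together, under 200 CPM of Lyve1, under 50 CPM each of Pdcd1lg2 and Gpnmb, and under 300 CPM of Ly6c2. Of 8953 barcodes, 8359 were within the limits on mitochondrial reads and genes, 1648 passed the gate and 261 were members. A pool was known for 244 members, of 7500 cells kept in a pool.

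BALB/c mice were either wild-type (WT) or Ccr2-/- (the Ccr2tm1Mae allele, carried by all cells of the animal), and were male and 7 to 12 weeks old per the methods of the study. Both genotypes received 300 µg of anti-TNP IgE intravenously and, on the next day, 10 µg of TNP12-conjugated ovalbumin in the right ear. Skin-infiltrating cells were taken 3 and 5 days after challenge, stained with 1 hashtag antibody per genotype and day, mixed, and sequenced as 1 cDNA library and 1 hashtag library, with 10000 labelled cells loaded. There was 1 pool per genotype and day, no unchallenged skin among the pools, and the number of mice in a pool is not given in the sources used here. No difference between pools therefore has a replicate, intervals given here cover counting error only, and reads are not molecules, since PCR copies were counted separately.

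C1q is the recognition subunit of the classical complement pathway. It is built from the products of C1qa, C1qb and C1qc, which lie side by side on chromosome 4, and tissue macrophages are a main source of it. C1q binds immune complexes and dying cells and helps macrophages to take them up. In the dermis, macrophages that express Lyve1 line blood vessels, while Lyve1-low macrophages include cells with low and with high MHC class II. CCR2 is the receptor by which Ly6C-high monocytes leave the bone marrow and enter inflamed tissue, and its ligands include CCL2, CCL7 and CCL12. MHC class II molecules are made of an alpha and a beta chain, loaded with peptide by H2-DM under the guard of the invariant chain Cd74, and their genes are switched on together by the coactivator Ciita through conserved elements, the X and Y boxes, upstream of each gene.

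Promoter windows of 3 of these genes are shown first, because the MHC class II genes divided the members both between genotypes and within the WT pools. The windows run from 250 bases before to 50 bases after the gene start in RefSeq (GRCm38.p6 reference, while the mice were BALB/c), 5′ to 3′ on the strand of the gene. Capitals mark the Y-box letters GATTGG on either strand and the letters AACNGATG. The H2-Aa window is chr17:34287774-34288073 on the minus strand, the H2-Eb1 window chr17:34305617-34305916 and the H2-DMb1 window chr17:34152941-34153240, both on the plus strand.
H2-Aa: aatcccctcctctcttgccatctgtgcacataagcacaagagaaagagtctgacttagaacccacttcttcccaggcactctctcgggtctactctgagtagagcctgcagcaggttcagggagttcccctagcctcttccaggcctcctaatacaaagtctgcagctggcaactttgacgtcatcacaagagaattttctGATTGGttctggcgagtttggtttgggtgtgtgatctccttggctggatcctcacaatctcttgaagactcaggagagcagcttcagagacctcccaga
H2-Eb1: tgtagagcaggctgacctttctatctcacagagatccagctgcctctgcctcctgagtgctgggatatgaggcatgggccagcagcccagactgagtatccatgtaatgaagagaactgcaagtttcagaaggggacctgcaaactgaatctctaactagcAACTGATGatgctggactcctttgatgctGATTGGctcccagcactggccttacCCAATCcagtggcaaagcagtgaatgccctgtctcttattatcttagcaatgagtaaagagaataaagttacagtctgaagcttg
H2-DMb1: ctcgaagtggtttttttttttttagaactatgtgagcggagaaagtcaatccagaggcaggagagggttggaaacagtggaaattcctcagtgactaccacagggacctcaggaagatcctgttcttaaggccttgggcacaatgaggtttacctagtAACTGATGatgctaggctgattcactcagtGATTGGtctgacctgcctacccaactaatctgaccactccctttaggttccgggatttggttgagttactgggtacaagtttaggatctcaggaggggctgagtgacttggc
Over both strands, GATTGG was found in 16.1% of 32851 RefSeq promoter windows of the same length and AACNGATG in 2.32%. The H2-Aa window did not hold AACNGATG. The windows of H2-DMb2, H2-Oa and H2-Ob also held GATTGG, and so did 1 of the 2 windows of H2-DMa, while the other held neither motif. H2-Ab1 had no entry among these windows and Cd74 was not searched, so neither gene is covered. AACNGATG was also in the windows of H2-DMb2, of Ctss, which was not past the rule between genotypes, and of Ccl12, which was higher in Ccr2-/- members. The windows of Cd80 and Ccl8 held neither. A match in a window is a description of its letters only.

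The chosen levels were similar in the 4 pools. C1qa (chromosome 4, 136895917 to 136898803, minus strand, GRCm38) had 2928 CPM of the summed reads in WT day 3, 2413 in WT day 5, 2254 in Ccr2-/- day 3 and 2703 in Ccr2-/- day 5. C1qb had 1517, 1099.6, 1113 and 1113 CPM in the same order. C1qc had 2679, 2091, 2491 and 2589 CPM. These values were set by the rule and are given as a description. The limit cut through a continuous range: with all other conditions met, 113 cells had 1500 to 3000 CPM of the 3 genes together (median 2083) and 143 had 3000 to 6000 CPM (median 4277). The other limits cut where few cells lay. Lyve1 was between 100 and 200 CPM in 13 members, and 10 cells were left out with 200 to 400 CPM. For Pdcd1lg2, 9 members had 25 to 50 CPM and 9 cells left out had 50 to 100 CPM.

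Selenop and Cbr2, which name the group and which the rule did not use, were read in most members. The group was named with earlier results of these data known, so these values are a description. Selenop, which encodes the selenium carrier selenoprotein P, had a read in 63 of 64, 125 of 125, 27 of 27 and 26 of 28 members (WT day 3, WT day 5 and the same days in Ccr2-/-). Cbr2, a carbonyl reductase typical of resident dermal macrophages, had a read in 53, 118, 21 and 23 of them. At 10000 reads per cell, Cbr2 was read in 79.2% to 90.9% of members and in 0.671% to 2.24% of fibroblasts, which should lack it and which show the level of free RNA. Fibroblasts were cells with at least 3000 CPM of Col1a1 and under 300 CPM of the gate genes, 324 to 777 a pool, with a median of 62792 to 105290.0 reads before thinning. Selenop itself had 297 to 844 CPM in fibroblasts, so it marked the members by level and not by presence. Markers of other cells were low in sum. The fibroblast list holds Col1a1 and the neutrophil list S100a8 and S100a9, which the rule capped, so their sums were partly fixed by it. The 6 fibroblast markers had 795 to 1215 CPM in the 4 pools, with all 6 read in each. The 6 neutrophil markers had 109 to 182 CPM, with Retnlg and Mmp9 at 0 in Ccr2-/- day 3. The 7 dendritic cell markers had 84.9 to 304 CPM, with Clec9a at 0 in every pool, and the 2 Langerhans cell markers had 0 to 42.7 CPM, with Cd207 at 0 in every pool. Lists of keratinocytes, endothelial and lymphatic endothelial cells, T, B and NK cells, mast cells, basophils and eosinophils each had at most 62.9 CPM. The part of these reads in the results below was not tested.

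Members had similar depth in the 4 pools. The median was 40267 reads and 3205 genes per member in WT day 3, 46277 and 3737 at WT day 5, 55388 and 3949 at Ccr2-/- day 3, and 56603 and 3656.5 at Ccr2-/- day 5. The median share of mitochondrial reads was 3.4% to 5.0%. Of the summed reads, the deepest single cell held 4.81%, 5.39%, 14.9% and 12.3%, so 1 cell weighs more in the Ccr2-/- values. The targeted gene checked the genotype labels. Ccr2 had 641 CPM in WT day 3 members and 449 CPM in WT day 5 members, against 1.72 CPM (3 reads) and 6.67 CPM (15 reads) in Ccr2-/- members. Fibroblasts had 1.95 to 5.33 CPM of Ccr2, and at 10000 reads per cell no Ccr2-/- member had a Ccr2 read. The part of Ccr2 that the allele removes is not given in the sources used here.

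In these pools, members were a larger share of WT cells than of Ccr2-/- cells, and the WT share was larger at day 5 than at day 3. They were 64 of 1613 cells kept in WT day 3, or 3.97% (exact 95% interval 3.07 to 5.04), and 125 of 1091 cells in WT day 5, or 11.5% (9.63 to 13.5). In Ccr2-/- they were 27 of 2274 cells at day 3, or 1.19% (0.784 to 1.72), and 28 of 2522 at day 5, or 1.11% (0.739 to 1.6). Neither WT interval overlapped a Ccr2-/- interval, and the Ccr2-/- values of the 2 days lay within each other's intervals. The means of the 2 pools were 7.71% in WT and 1.15% in Ccr2-/-, 6.56 percentage points apart, with p = 0.33 by an exact two-sided permutation test, the smallest p that 2 pools against 2 allow.

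Within the monocyte-macrophage gate the order was different. The gate itself held 36.4% and 48.5% of WT cells and 9.89% and 8.76% of Ccr2-/- cells at days 3 and 5. Members were 10.9% of the gate (8.50 to 13.7) in WT day 3, 23.6% (20.1 to 27.5) in WT day 5, 12% (8.06 to 17.0) in Ccr2-/- day 3 and 12.7% (8.59 to 17.8) in Ccr2-/- day 5. Only the WT day 5 interval stood clear of the other 3, whose intervals overlapped. The means of 17.3% and 12.3% differed by 4.93 points with p = 1.0 by the same exact test. Lyve1-high cells that otherwise met the rule numbered 16, 15, 19 and 10, or 0.992%, 1.37%, 0.836% and 0.397% of the cells kept. Members thus made up 80.0% and 89.3% of members and Lyve1-high cells together in WT, and 58.7% and 73.7% in Ccr2-/-. C1q-high cells left out for Pdcd1lg2, Gpnmb or Ly6c2 were not counted there. A share of cells does not give a number of cells per ear, which was not measured here.

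**Figure D1:**
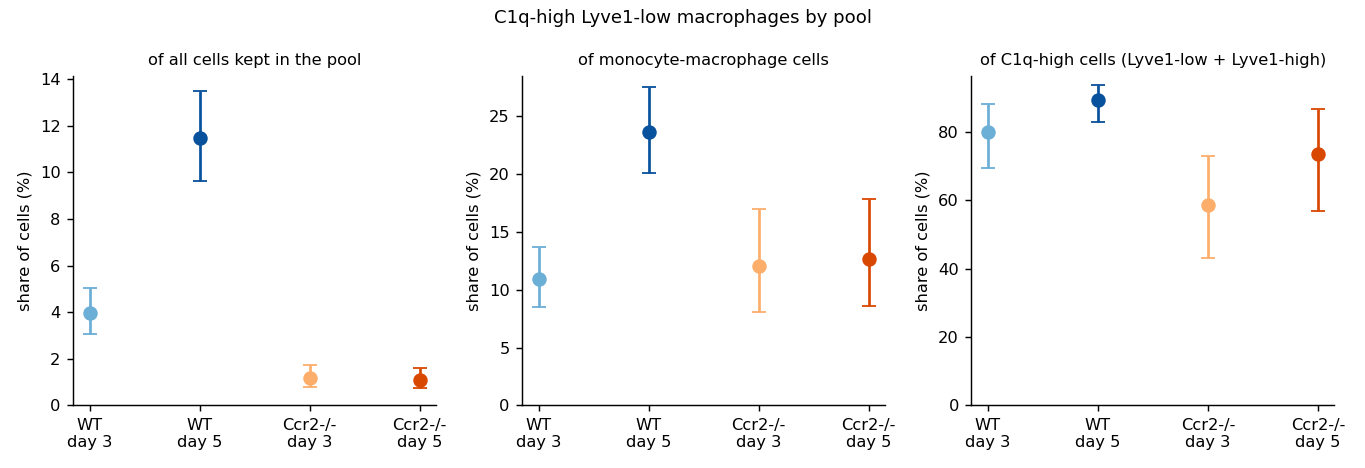
Share of C1q-high Lyve1-low macrophages (%) among all cells kept in each pool (left) and among monocyte-macrophage cells (middle). The right panel gives their share of Lyve1-low and Lyve1-high C1q-high cells that met the other limits. Bars are exact 95% intervals for counting error. Of all cells, WT pools held 3.97% and 11.5% and Ccr2-/- pools 1.19% and 1.11%, while of monocyte-macrophage cells only WT day 5, at 23.6%, stood apart.

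The WT members of the 2 days differed in few genes, and in few of those that mark resident macrophages. Between pools a gene was counted as past 2-fold only if its log2 ratio (pseudocount 10 CPM) was at least 1 in size by the summed reads, by the mean of the cells' CPM and by the summed reads without each pool's top cell for that gene. Genes needed a mean of 20 CPM over both sums and a read in 10% of the cells of one group. In WT members 85 of 6620 genes (1.28%) were higher at day 5 than at day 3 past this rule and 40 (0.604%) were lower. Of 25 tested genes of tissue residence 2 were higher and none lower, with a median log2 ratio of -0.03 against -0.02 over all genes. Of 13 tested complement genes, 13 efferocytosis genes and 6 Fc receptor genes, none was past the rule in either direction.

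Mrc1, Folr2 and F13a1 were within 2-fold in all pairs of pools. Mrc1, the mannose receptor, had 2907, 2840, 4051 and 3706 CPM in WT day 3, WT day 5 and the same days in Ccr2-/-. Folr2, a folate receptor of resident macrophages, had 712, 571, 584 and 500.2 CPM. F13a1, the A chain of coagulation factor XIII, had 1262, 919, 847 and 691 CPM. The chemokine Pf4 had 3662, 2742, 4382 and 3103 CPM. Maf, a transcription factor of macrophages, had 1019.9, 1184, 984 and 862 CPM. The inhibitory Fc receptor Fcgr2b had 1561, 1725, 2244 and 2009.9 CPM and the low-affinity activating receptor Fcgr3 had 962, 907, 891 and 1019 CPM. The alpha and beta chains of the high-affinity IgE receptor were near 0, where Fcer1a had at most 1.33 CPM and Ms4a2 at most 0.889 CPM in any pool.

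Cd163 and Cd209f were the genes of tissue residence that were higher at day 5 past the rule. Cd163, a scavenger receptor for haptoglobin-haemoglobin, went from 636 CPM (607 to 665) to 2005 CPM (1973 to 2036), a log2 ratio of 1.64, and was read in 35 of 64 and 102 of 125 members. The median member had 19.2 CPM at day 3 and 1276 CPM at day 5. In Ccr2-/- members Cd163 had 1484 and 1553 CPM, of which the top cell held 34% and 41.3%. With the C1q limit at 6000 CPM the WT log2 ratio was 0.77 and no longer past 2-fold. Cd209f, a lectin gene, had 27.5 and 82.9 CPM in WT and was read in 7 of 64 and 20 of 125 members.

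The other genes that were higher at day 5 in WT held 2 of 16 tested lipid-handling genes (Fabp4 and Ctsl) and 1 of 15 of alternative activation (Arg1). Selenop itself had 8861 CPM at day 3 and 14955 CPM at day 5, under 2-fold. Fabp4, a fatty-acid carrier, had 8.04 and 60.6 CPM. Ctsl, which encodes a lysosomal protease, had 1340.4 and 3043 CPM. Arg1, the arginase of alternative activation, had 267 and 682 CPM. The cationic amino acid transporter Slc7a2, which supplies arginine, had 12.1 and 83.1 CPM, and Tmem26 had 5.36 and 58.4 CPM. Chchd10, a mitochondrial protein gene, had the largest ratio of the genes with an established name, 2.82 on the log2 scale, with 4.69 and 93.5 CPM. Genes that fell included Hk1, a hexokinase, from 50.6 to 6.67 CPM, Stmn1, a tubulin-binding protein of dividing cells, from 74.7 to 15.0 CPM, Clec12a, an inhibitory lectin receptor, from 82.4 to 21.7 CPM, Lair1, an inhibitory collagen receptor, from 104 to 26.6 CPM, and the surface glycoprotein gene Cd52 from 114 to 27.6 CPM. The chemokine gene Ccl7 fell from 1572 to 742 CPM. Ccl8, a chemokine that dermal macrophages make in large amounts, had 7990 CPM (7889 to 8092) at the earlier day and 19060.0 CPM (18963 to 19157) at the later one. Its log2 ratio of 1.25 by the sums did not hold in the mean of the cells, so it was not counted.

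**Figure D2:**
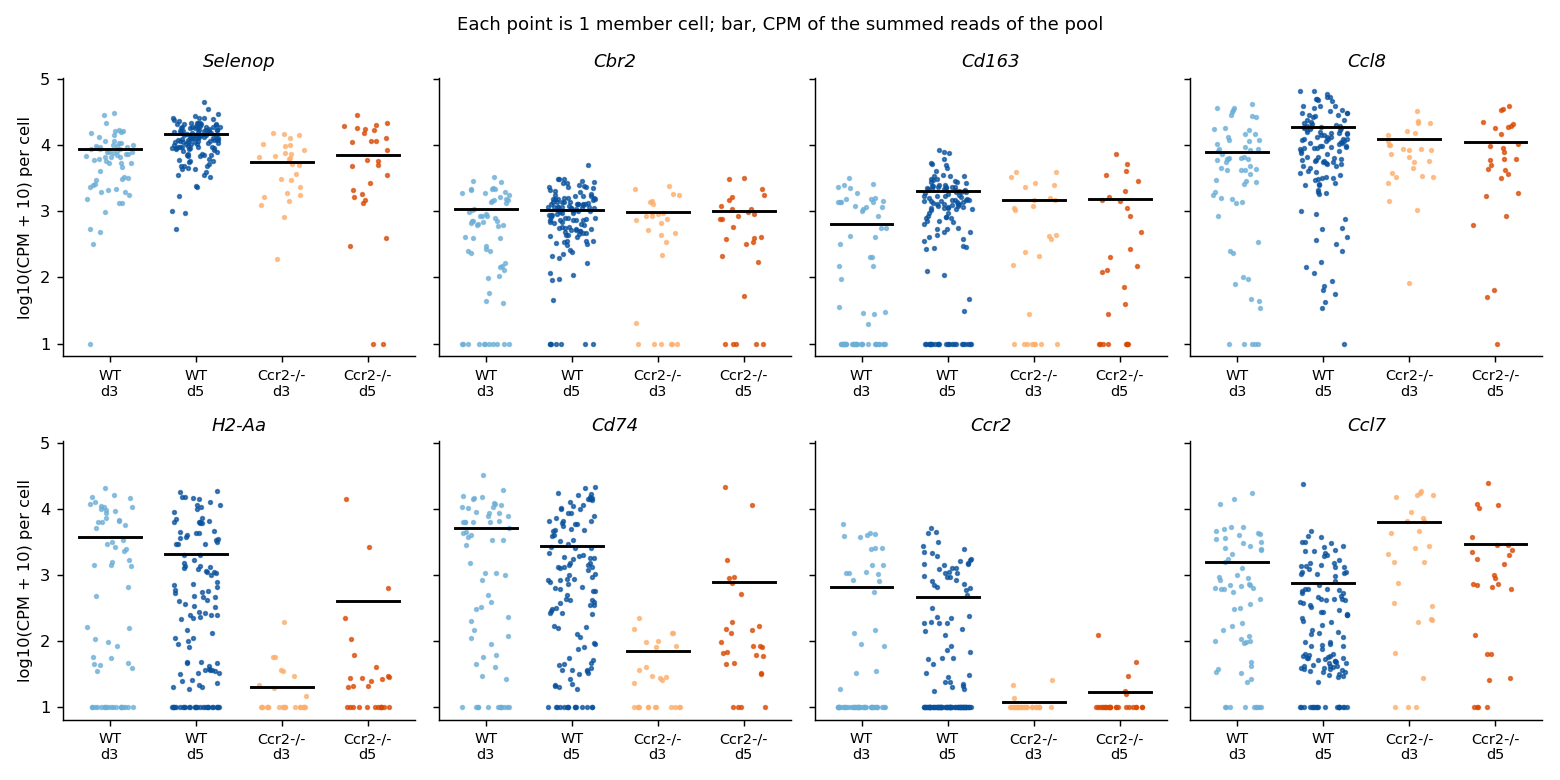
Levels of 8 genes in single members, as log10(CPM + 10) per cell; each point is 1 cell, the bar is the CPM of the summed reads, and d3 and d5 are days 3 and 5. Cells without a read lie at 1, where 18 of 27 and 12 of 28 Ccr2-/- members lie for H2-Aa, while Selenop, Cbr2 and Ccl8 overlap between all 4 pools.

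MHC class II transcripts divided the members within a pool and between genotypes. H2-Aa (chromosome 17, 34282744 to 34287823, minus strand), the I-A alpha chain whose promoter is printed above, stood at 3685 CPM (3616 to 3754) in WT day 3, against 2031 CPM (1999 to 2063) in WT day 5. In Ccr2-/- members H2-Aa had 10.3 CPM (6.12 to 16.3) on the first of these days and 389 CPM (364 to 416) on the second, and a single cell held 77.8% of the day 5 reads. Without that cell the day 5 level was 88.1 CPM. Both WT pools were above both Ccr2-/- pools, and the share of all genes with such an order is not given here. H2-Ab1, the I-A beta chain, had 2730.3, 1346, 13.2 and 377 CPM in WT day 3, WT day 5 and the same days in Ccr2-/-. H2-Eb1, the I-E beta chain, had 1653, 774, 4.02 and 199.6 CPM, and the invariant chain gene Cd74 had 5036, 2746, 60.8 and 780.2 CPM. The order of the pools was the same for the 4 genes.

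The genes of peptide loading and the coactivator had the same order of pools. H2-DMa had 308, 157, 10.3 and 28 CPM and H2-DMb1 had 265, 137, 0 and 24.0 CPM, where 0 reads in Ccr2-/- day 3 allow up to 1.72 CPM (3 reads). Ciita had 50.9, 27.7, 0 and 10.2 CPM. Of 10 tested MHC class II presentation genes 7 were lower in Ccr2-/- than in WT members past 2-fold at day 3, where 6.24% of 6637 genes were lower and 4.81% higher, with a median log2 ratio of -4.37 against 0.07 over all genes. At day 5 it was 6 of 9, where 3.44% of 6683 genes were lower and 1.99% higher, with a median of -1.81 against 0.08. The genes past the rule on both days were H2-Aa, H2-Ab1, H2-Eb1, H2-DMa, H2-DMb1 and Cd74. The protease Ctss, which trims the invariant chain, had 3012, 3214, 1609 and 2309 CPM and was not past the rule on either day. The costimulatory ligand gene Cd86 had 34.8, 49.9, 46.5 and 54.7 CPM.

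Fibroblasts give the level that free RNA can reach. At 10000 reads per cell H2-Aa was read in 11.4% to 13.4% of fibroblasts, in 12.5% of Ccr2-/- day 3 members, in 32.0% of Ccr2-/- day 5 members, and in 66.1% and 57.9% of WT members. The Ccr2-/- day 3 share was thus at the background share. Cd74 gave 13.8% to 18.2% in fibroblasts and 16.7% in Ccr2-/- day 3 members, against 60.0% in Ccr2-/- day 5 members and 75% and 72.7% in WT.

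In single cells the WT members fell along a wide range of H2-Aa. In WT day 3 the quartiles were 0, 555 and 6378 CPM. In WT day 5 they were 12.9, 319 and 2943 CPM. A line at 500 CPM, chosen after the values were seen, put 32 of 64 members above it in WT day 3 (50.0%, exact 95% interval 37.2 to 62.8), 55 of 125 in WT day 5 (44.0%, 35.1 to 53.2), 0 of 27 in Ccr2-/- day 3 (0.0 to 12.8) and 3 of 28 in Ccr2-/- day 5 (10.7%, 2.3 to 28.2). Between 250 and 1000 CPM lay 2, 19, 0 and 1 cells, so at day 5 the line cut through occupied ground. At 10000 reads per cell the numbers were 31 of 56, 54 of 121, 0 of 24 and 3 of 25.

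**Figure D3:**
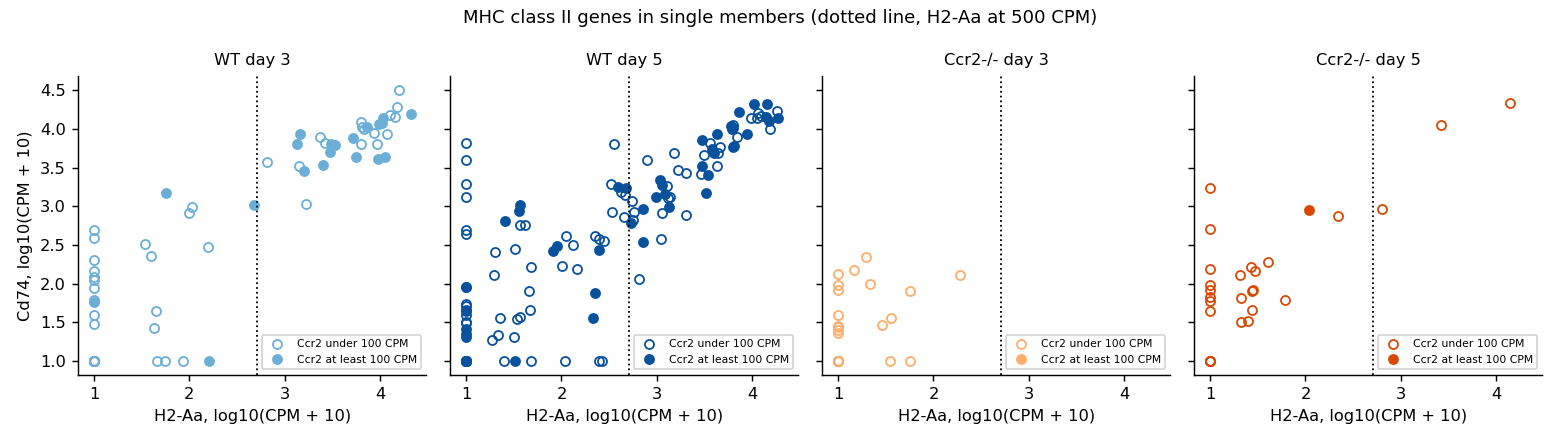
Cd74 against H2-Aa in each member, both as log10(CPM + 10), by pool; the dotted line is H2-Aa at 500 CPM and filled circles are cells with at least 100 CPM of Ccr2. WT members spread along the whole diagonal with 32 of 64 and 55 of 125 right of the line, while 0 of 27 and 3 of 28 Ccr2-/- members lay there.

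The H2-Aa-high and H2-Aa-low WT members were compared within each day. Since H2-Aa chose the cells, its own ratio is no result. Of 5845 genes tested on both days, 19 (0.325%) were higher in H2-Aa-high members past 2-fold on both, H2-Aa itself among them, and 7 (0.120%) were lower. At day 3 the shares were 5.84% and 5.69%, and at day 5 0.884% and 1.27%. The higher genes included 6 of 10 tested MHC class II presentation genes (H2-Ab1, H2-Eb1, H2-DMa, H2-DMb1, Cd74 and Ciita). Cd74 had 8901 against 354 CPM at day 3 and 5476 against 413 CPM at day 5. H2-DMb1 had 482 against 2.96 CPM and 286 against 10.2 CPM. Beside them stood the pattern receptors Clec7a (119 against 20.7 CPM and 115 against 32.8 CPM) and Clec12a (143 against 8.89 CPM and 40.4 against 5.71 CPM), the cytokine gene Il1b (248 against 23.0 CPM and 420.0 against 182 CPM), and Retnla, which encodes a secreted protein of alternative activation. Retnla had 7029 against 2934 CPM at day 3 and 5289 against 2001 CPM at day 5. At day 3 it was read in fewer H2-Aa-high members (37.5% against 50.0%) and at day 5 in more (67.3% against 54.3%). Arg1 was lower in H2-Aa-high members, at 73.3 against 501 CPM and 439 against 889.8 CPM. None of 24 tested genes of tissue residence, 13 complement genes or 19 lysosomal genes was past the rule on both days.

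Ccr2 was read more often in H2-Aa-high members, but its level was past the rule at day 3 only. It had 1077 against 113 CPM at day 3 and 592 against 327 CPM at day 5. Of H2-Aa-high cells, 16 of 32 at day 3 and 27 of 55 at day 5 had at least 100 CPM of Ccr2, against 4 of 32 and 17 of 70 H2-Aa-low cells. The 100 CPM line was also chosen after the values were seen, and cells of 1 pool are not replicates.

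In all, 24 of 6019 genes tested on both days (0.399%) were higher in Ccr2-/- than in WT members past 2-fold at both days and 69 (1.15%) were lower, the deleted gene Ccr2 among them. Beside the MHC class II genes, the lower ones held 2 of 9 tested monocyte genes, Chil3 and Ccr2, whose call was fixed by the genotype. They also held 2 of 13 tested genes of alternative activation (Retnla and, counted in both lists, Chil3). None of 12 tested complement genes or 19 lysosomal genes was past the rule on both days. Chil3, a chitinase-like protein of monocytes and alternatively activated macrophages, had 101.1 and 194.8 CPM in WT, against 3 reads in either Ccr2-/- pool (1.72 and 1.33 CPM). Retnla had 5177 and 3516 CPM in WT members against 597 and 602 CPM in Ccr2-/- ones, with the top cell holding 32.2%, 26.1%, 50.0% and 83.4% of the reads. Ear2, an eosinophil-associated ribonuclease also made by monocytes, had 117 and 55.7 CPM in WT, 0 reads in Ccr2-/- day 3 and 1 read in Ccr2-/- day 5, with the reservation that near-identical copies of this gene can share its reads. The groups of pools did not overlap for these genes, and the share of all genes that separate in this way is not given here. Chil3 and Ear2 were carried by a minority of WT members: 18 and 33 had a Chil3 read and 7 and 13 an Ear2 read. Retnla was read in 43.8% of WT members at day 3 and 60.0% at day 5, against 44.4% and 42.9% of Ccr2-/- members.

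Further genes were lower on both days in other roles. Pla2g7, a secreted phospholipase that breaks down platelet-activating factor, had 274 and 301 CPM in WT members against 11.5 and 57.8 CPM in Ccr2-/- ones. Trf, which encodes transferrin, had 228 and 312.9 CPM in WT members against 76.9 and 83.1 CPM in Ccr2-/- ones. Btg2, an immediate early gene that restrains division, had 305 and 606 CPM in WT members against 112 and 125 CPM in Ccr2-/- ones. Itgb5, an integrin chain that takes part in the uptake of dying cells, had 61.6 and 60.2 CPM in WT members against 9.18 and 15.6 CPM in Ccr2-/- ones. The transcription factors Cebpb (405 and 718 against 194 and 252 CPM) and Bhlhe40 (78.0 and 147 against 20.1 and 50.2 CPM) were lower as well, 2 of 15 tested on both days, and of 24 tested genes of tissue residence only Cd209g was (75.7 and 58.9 against 12.1 and 0 CPM).

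Among all members Apoe and Lyz2 were lower on 1 day only by the rule. Apoe, the carrier of cholesterol out of macrophages, had 7211 CPM in WT day 3, 9755 in WT day 5, 2311 in Ccr2-/- day 3 and 3724 in Ccr2-/- day 5. Its log2 ratio was -1.64 at day 3 and -1.39 at day 5, the latter not holding in the mean of the cells. Lyz2, the macrophage lysozyme, had 5424, 4853, 1207 and 3394 CPM, past 2-fold at day 3 and not at day 5. Trem2, a lipid receptor, had 153, 296, 239.9 and 243 CPM and was past the rule on neither day. Apoe had 446 to 1087 CPM in fibroblasts.

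The genes higher in Ccr2-/- members on both days included ligands of the deleted receptor. In WT members Ccl7 had 1572 CPM (1527 to 1618) at day 3, with 742 CPM (723 to 761) by day 5, and 6392 CPM (6274 to 6512) and 2889 CPM (2819.5 to 2960) in Ccr2-/-. Ccl12 had 395 and 353 CPM in WT members against 2097 and 1629 CPM in Ccr2-/- ones. Both Ccr2-/- pools were above both WT pools for either gene, an order whose share among all genes is not given here. Of 24 chemokine and cytokine genes tested on both days, 2 passed the rule. Ccl2 had 1523 and 938 CPM in WT members against 5094 and 2307 CPM in Ccr2-/- ones, past the rule at day 3 and by the sums alone at day 5. Ccl8, their neighbour on chromosome 11, had 7990 and 19060.0 CPM in WT members against 12247 and 11067 CPM in Ccr2-/- ones, within 2-fold on each day.

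Ccl7 and Ccl2 were also high in fibroblasts of the same pools. In WT fibroblasts Ccl7 had 1670.2 CPM at day 3 and 1299 CPM at day 5, and in Ccr2-/- fibroblasts 3317 and 2199 CPM. Ccl2 had 1781 and 1499 CPM in the WT fibroblasts, against 4016 and 2616 CPM in those of Ccr2-/- pools. Among Ccr2-/- members, Ccl7 was read in 24 of 27 at day 3 and 24 of 28 at day 5. The part of fibroblast RNA in the members' chemokine reads was not tested.

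Other genes higher on both days were Cyp26b1, an enzyme that breaks down retinoic acid (75.7 and 28 CPM in WT, 704 and 235 CPM in Ccr2-/-), Fgl2, a prothrombinase of activated macrophages (195 and 207 against 718 and 781 CPM), the mucin-type protein gene Pdpn (19.8 and 39.5 against 165 and 197 CPM) and Ch25h, which makes the sterol 25-hydroxycholesterol. Fgl2 was read in 22 of 27 and 23 of 28 Ccr2-/- members with a median cell at 464 and 466 CPM, against 33.0 and 36.3 CPM in the median WT member. For Cyp26b1 the top cell held 58.2% and 74.1% of the Ccr2-/- reads. Levels in fibroblasts were not taken for Cyp26b1, Fgl2, Pdpn or Ch25h. Ctsk, a collagen-degrading protease, had 116 and 107 CPM in WT members against 496 and 854 CPM in Ccr2-/- ones, but fibroblasts of the same pools had 592 to 1004 CPM, 1 cell held 54.9% of the Ccr2-/- day 5 reads, and with the C1q limit at 6000 CPM the day 5 log2 ratio was -2.51.

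**Figure D4:**
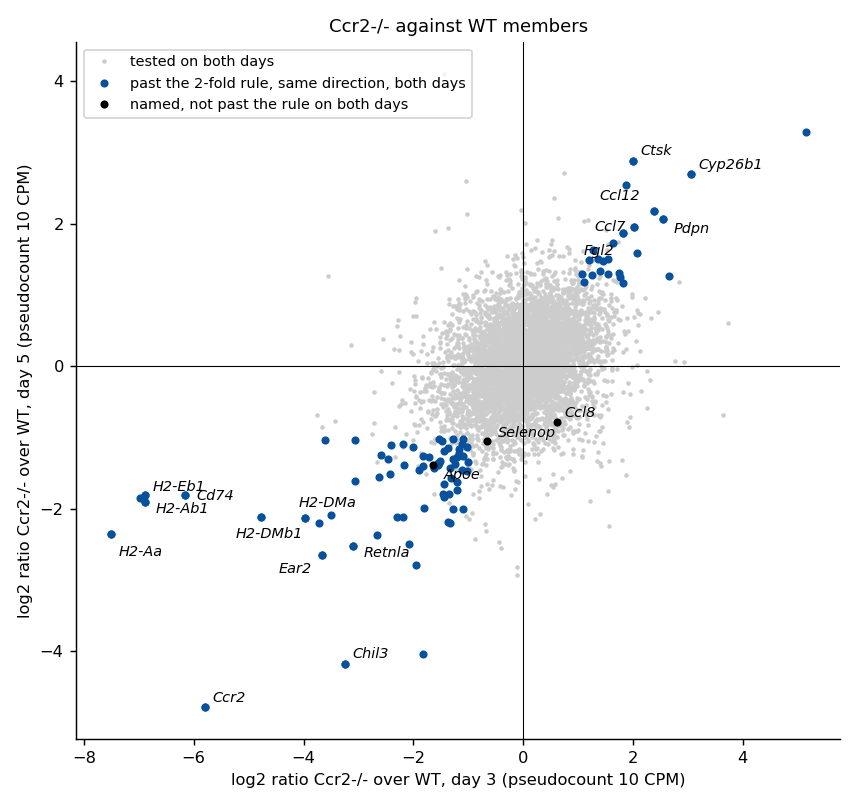
Log2 ratio of the CPM of Ccr2-/- over WT members at day 3 (x axis) and day 5 (y axis), pseudocount 10 CPM, for genes tested on both days; blue points are past 2-fold in the same direction on both days. The 69 genes at lower left include Ccr2, H2-Aa, Cd74 and Chil3, the 24 at upper right include Cyp26b1, Ccl7 and Ccl12, and Selenop and Ccl8 are among the genes not past the rule on both days.

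Since few Ccr2-/- members were H2-Aa-high, the genotypes were also compared among H2-Aa-low members alone, a comparison added after the data were seen. There 25 genes were higher and 36 lower in Ccr2-/- on both days, of which 14 and 25 were among those found with all members. A share of all genes tested was not taken for this comparison, so these counts are a description only. All 27 Ccr2-/- members of day 3 and 25 of the 28 of day 5 were H2-Aa-low. The comparisons therefore share most of their Ccr2-/- cells, and the overlap of genes is no independent result. Chil3, Pla2g7, Trf, Btg2 and Itgb5 were still lower past 2-fold on both days, and Ccl12, Fgl2, Pdpn and Ctsk still higher. The line at 500 CPM did not make the genotypes alike in MHC class II genes, since H2-Aa itself had 68.1 and 99.2 CPM in H2-Aa-low WT members against 10.3 and 39.9 CPM in Ccr2-/- ones. Cd74 (354 and 413 against 60.8 and 198 CPM) and H2-DMa (52.6 and 104 against 10.3 and 13.9 CPM) were also lower past the rule on both days. Apoe was lower on both days among these cells, with log2 ratios of -1.74 and -1.28. Pla2g7 had 225 and 364 CPM in H2-Aa-low WT members and 11.5 and 44.7 CPM in Ccr2-/- ones. Ccl12 had 562 and 380.2 CPM against 2097 and 1483 CPM. Ccl7 (2328 and 797 against 6392 and 2987 CPM) and Retnla (2934 and 2001 against 597 and 649 CPM) passed the rule at day 5 only.

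The 2 days were also compared among Ccr2-/- members, on fewer cells and as a comparison added after the data were seen. Of 6659 genes, 4.29% were higher and 3.59% lower at day 5. Higher at day 5 were 4 of 12 tested genes of cell division (Mki67, Top2a, Birc5 and Stmn1), with a median log2 ratio of 1.30 against -0.02 over all genes. Mki67, a nuclear protein of cycling cells, had 21.2 CPM at day 3 and 290.3 CPM at day 5, and was read in 7 of 27 and 13 of 28 members. Top2a, a topoisomerase of DNA replication, had 10.3 and 119.6 CPM, with the top cell holding 77.3% of the day 5 reads. In WT members Mki67 had 53.2 and 58.4 CPM, and it was past the rule between genotypes on neither day. At day 5, 6 of 12 tested genes of cell division (Top2a, Ccnb2, Birc5, Mcm6, Rrm2 and Stmn1) were higher in Ccr2-/- than in WT members past the rule, against 1.99% of all genes, with a median log2 ratio of 2.23, and none of 6 tested was at day 3.

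Of 13 tested genes of alternative activation, 4 were lower at day 5 (Arg1, Ccl24, Cish and Il10) and none higher, with a median log2 ratio of -0.63. Arg1 had 806 CPM at day 3 and 136 at day 5. Ccl24, an eosinophil-attracting chemokine, had 806 and 128 CPM, and Il10, an anti-inflammatory cytokine, had 266 and 33.3 CPM, with 85.3% of the latter in a single cell. In WT members Ccl24 had 425 and 254 CPM and Il10 had 84.0 and 135 CPM, neither past 2-fold. H2-Aa, H2-Ab1, H2-Eb1 and Cd74 were higher at day 5, as 4 of 6 tested genes of MHC class II presentation. Without the 3 H2-Aa-high cells, the day 5 members had 82.7 CPM of H2-Ab1 and 198 CPM of Cd74, against 13.2 and 60.8 CPM at day 3.

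Compared with the Lyve1-high macrophages of the same pools, few genes set the members apart in all 4 pools alike. The Lyve1-high cells numbered 10 to 19 a pool, under the 20 cells first required, so this comparison was lowered to 10 cells after the numbers were known. In the single pools 9.90%, 8.99%, 8.91% and 10.0% of genes were past 2-fold in either direction (WT day 3, WT day 5 and the same days in Ccr2-/-), but of 5026 genes tested in every pool, 2 were higher in members in all 4 (0.0398%) and 2 lower (0.0398%). The higher genes were Fabp5, a fatty-acid carrier, and Arg1. Fabp5 had 214, 465, 479 and 1047 CPM in members and 15.2, 56.4, 11.0 and 14.8 CPM in Lyve1-high cells. Arg1 had 267, 682, 806 and 136 CPM in members and 32.7, 15.6, 37.0 and 2.82 CPM in Lyve1-high cells. The genes lower in all 4 pools were Lyve1, which the rule fixed, and Ltc4s, the leukotriene C4 synthase, with 63.3, 28.9, 8.61 and 62.2 CPM in members and 175, 115, 74.5 and 152 CPM in Lyve1-high cells. Selenop had 8176, 13851, 4767 and 10464 CPM in Lyve1-high cells and was within 2-fold of the members in each pool.

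Some MHC class II presentation genes were higher in members than in Lyve1-high cells in 3 of the pools. Of those tested, 3 of 10 were higher in members at WT day 3 (H2-Aa, H2-DMa and Ciita), 4 of 8 at WT day 5 (H2-Aa, H2-Ab1, H2-DMa and H2-DMb1) and 4 of 8 at Ccr2-/- day 5 (H2-Aa, H2-Ab1, H2-Eb1 and Cd74), with none lower. The median log2 ratios were 1.25, 1.47 and 1.95. At Ccr2-/- day 3 none of 8 was higher and H2-DMa was lower, with a median of -2.34, while over all genes the medians of the 4 pools lay between -0.07 and 0.05. In Lyve1-high cells H2-Aa had 1041, 618, 582 and 12 CPM, and a single cell held 58.9%, 68.9%, 97.5% and 23.5% of these reads. Genes of cell division were lower in members in 6 of 14 tested at Ccr2-/- day 3, and at Ccr2-/- day 5 Mki67 was higher and Tyms lower, of 16 tested. Of 11 tested monocyte genes 5 were higher in members at WT day 5 (Plac8, Chil3, F10, Fn1 and Ly6c1), and of 25 chemokine and cytokine genes 10 were higher and 1 lower at Ccr2-/- day 5, Ccl2 and Ccl7 among the higher.

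Gate cells with at least 50 CPM of Pdcd1lg2 or Gpnmb were compared in turn. They were not selected by C1q, Lyve1 or Ly6c2, while the rule limited these genes in members. How far those limits shape the differences below was not tested. These groups differ in size from the Lyve1-high cells, so the counts of genes are not set against each other. Pdcd1lg2 encodes the checkpoint ligand PD-L2, and 125, 66, 41 and 33 gate cells in the 4 pools had at least 50 CPM of it with Gpnmb under 50. Against them 45 of 5328 genes (0.845%) were higher in members in all 4 pools and 36 (0.676%) were lower. Higher in all 4 were 8 of 21 tested genes of tissue residence (Selenop, Cbr2, Folr2, F13a1, Cd209b, Stab1, Clec10a and Gas6), of which Selenop and Cbr2 name the group. Cd209b, a lectin of resident macrophages, had 207, 206, 74.0 and 217 CPM in members against 2.24, 0, 7.81 and 8.63 CPM. Stab1, a scavenger receptor for dying cells, had 457, 384, 597 and 345 CPM against 56.8, 169, 94.3 and 48.6 CPM.

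Higher in all 4 pools were also 3 of 11 tested efferocytosis genes (Gas6, Pros1 and Stab1), of 15 lipid-handling genes Apoe, and the complement gene C4b. The complement component C4b had 199.9, 167, 298 and 244.5 CPM against 24.6, 10.3, 20.7 and 10.9 CPM. Gas6, the bridge between dying cells and TAM receptors, had 473, 499, 470.1 and 722 CPM against 114, 192, 54.3 and 54.0 CPM. Apoe had 7211, 9755, 2311 and 3724 CPM against 980.1, 4215, 861 and 469 CPM. Fibroblasts also express C4b (149 to 247 CPM) and Gas6 (375 to 646 CPM), and C4b was read in 39.3% to 45.8% of thinned fibroblasts against 28.6% to 44.0% of thinned members, so the shares overlapped.

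Lower in all 4 pools were 3 of 11 tested monocyte genes (Plac8, F10 and Fn1), with Lyz2 higher, and 2 of 16 genes of alternative activation (Arg1 and Tgm2), with Clec10a higher. Arg1 had 2236, 2496, 3937 and 1705 CPM in Pdcd1lg2-positive cells, Fabp5 had 2155, 1109.7, 2717 and 3226 CPM, and Fn1, which encodes fibronectin, had 1348, 1909, 1828 and 989 CPM against 274, 439, 190.5 and 321 CPM in members. Il4i1, an amino acid oxidase, had 67.5, 94.7, 152 and 145 CPM against 5.02, 2.31, 0 and 0 CPM. The transcription factor gene Bhlhe40 was lower too. MHC class II presentation genes did not separate the groups at WT day 3, where 0 of 11 tested were past 2-fold, but 8 of 11, 8 of 10 and 8 of 12 were lower in members in the other pools (WT day 5 first). Of all genes 5.97% were lower in members at WT day 3, 2.16% at WT day 5, 6.32% at Ccr2-/- day 3 and 7.0% at Ccr2-/- day 5.

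Gpnmb-positive cells could be compared in WT day 5 alone, with 29 cells. Gpnmb encodes a lysosomal membrane glycoprotein of lipid-laden macrophages. Of 6567 genes, 3.47% were higher and 3.17% lower in members. Of 25 tested genes of tissue residence 10 were higher and none lower, with a median log2 ratio of 0.97 against 0.06 over all genes. Of 16 tested interferon-stimulated genes 12 were lower, with a median of -2.45: the antiviral gene Rsad2 had 30.2 CPM in members and 1115 CPM in Gpnmb-positive cells. Genes of glycolysis and hypoxia were lower in 7 of 15, and lipid-handling genes of the TREM2 type in 6 of 18, among them Spp1, which encodes osteopontin, at 7.95 against 255 CPM. Mmp12, the macrophage elastase, had 3.08 against 1484 CPM, of which a single Gpnmb-positive cell held 86.1%.

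**Figure D5:**
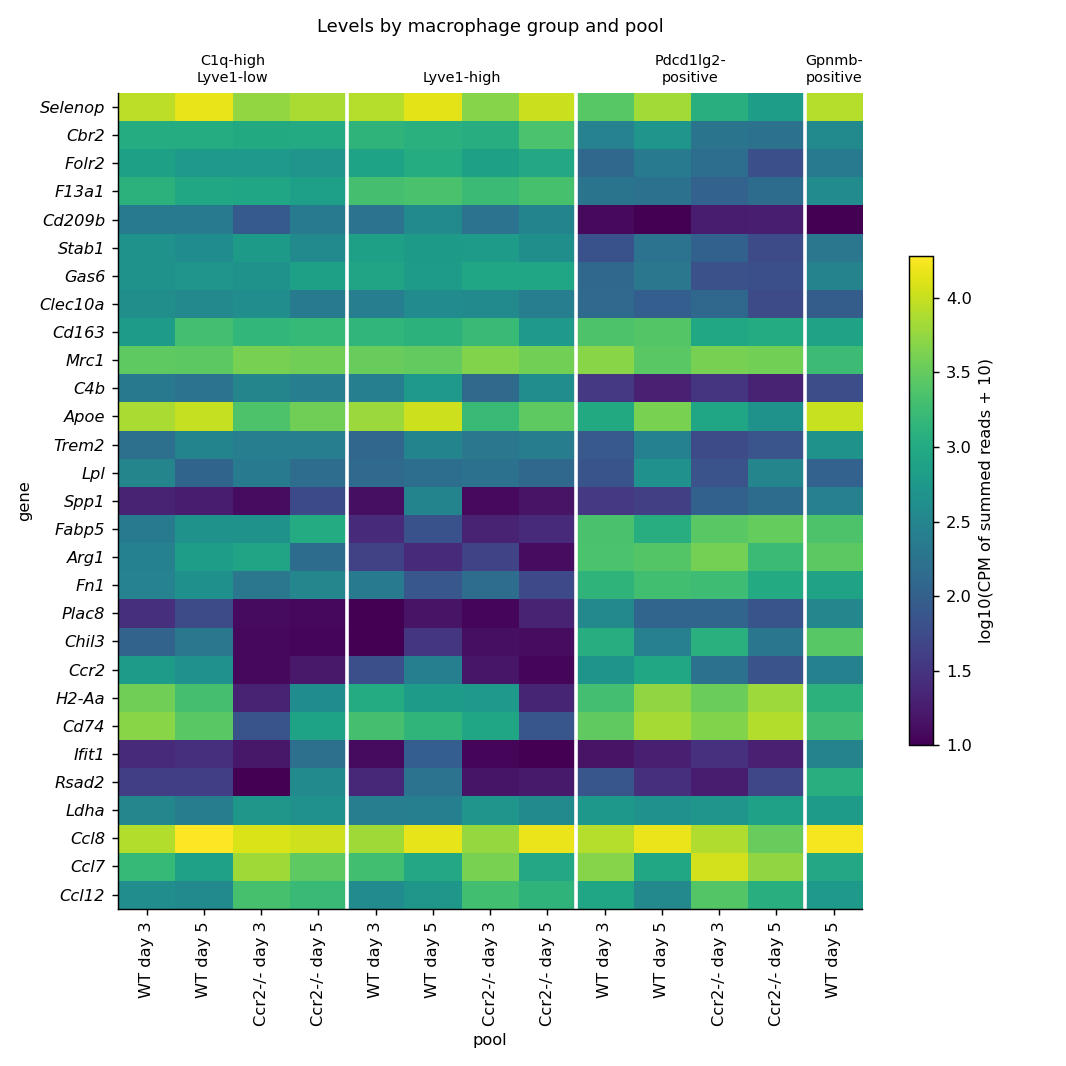
Levels of selected genes as log10(CPM of summed reads + 10) in C1q-high Lyve1-low, Lyve1-high, Pdcd1lg2-positive and Gpnmb-positive cells of each pool with at least 10 cells. Each gene from Selenop to Clec10a is brighter in C1q-high Lyve1-low cells than in Pdcd1lg2-positive cells of the same pool. Arg1 and Fabp5 are bright in Pdcd1lg2-positive cells. H2-Aa is dim in C1q-high Lyve1-low cells at Ccr2-/- day 3 and in Lyve1-high cells at Ccr2-/- day 5.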

How the data were processed

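The library was made by TAS-Seq, a whole-transcriptome method, from cells captured in BD Rhapsody microwells. Per the study's methods, adapters and low-quality bases were removed (cutadapt), reads were mapped to Ensembl transcripts of GRCm38.p6 (Bowtie2), and barcodes past the knee-plot inflection were retained. The deposited values in both files are raw counts of reads, per gene or hashtag and barcode. The cDNA matrix held 35208 gene rows (313 without reads), 8953 barcodes and 548117598 reads, with 3113 to 713596 reads per barcode. Of the barcodes, 8696 were also in the hashtag file, whose 9 further hashtag columns were not used here. The background correction named in the study's methods could not be recognised in the deposited values.

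Barcodes with over 20% mitochondrial reads (594) or under 200 genes (38) were left out. A barcode was given to the pool whose hashtag count, divided by the column total, was highest and at least 3 times the next. The 859 others within the limits, among them those with several hashtags, got no pool, and no doublet caller on expression was run. Intervals at 95% are exact, Poisson for CPM from summed reads and Clopper-Pearson for shares, and cover counting error only. A gene with 0 reads was set against 3 reads. Thinned values use 10000 reads per cell, leaving out 8, 4, 3 and 3 shallower members.

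With 1 pool per group no gene was tested. Called genes met the fold rule given with the results, which was run on simulated reads first. In each comparison the 12 genes with the largest log2 ratio in each direction past that rule could be named, beside members of 16 gene lists. Mitochondrial, ribosomal and unnamed genes and those of the membership rule were left out of that choice. The members and lists were chosen with earlier results of these data known. Alternatives were other hashtag ratios, C1q, Lyve1, Pdcd1lg2, Gpnmb, Ly6c2 and mitochondrial limits, scalings, filters, pseudocounts and thinning. Promoter windows are from RefSeq and gene positions from GENCODE M21, which may differ from the annotation the authors aligned to. Analyses used Python 3.11.15, NumPy 2.4.6, pandas 2.3.3, SciPy 1.17.1 and Matplotlib 3.10.9.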

Additional observations from a re-analysis of the deposited data

Results flagged for a closer look

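Of 5866 genes tested between days in both genotypes, 8 were past the 2-fold rule in opposite directions in WT and Ccr2-/- members, and 8 in the same direction. The difference between genotypes was not tested, since each had 1 pool per day. Arg1 had a log2 ratio of day 5 over day 3 of 1.32 in WT and -2.48 in Ccr2-/- members, from 267 to 682 CPM in WT and from 806 to 136 CPM in Ccr2-/-. Cd52 had -1.72 and 3.10, with 0.574 CPM in Ccr2-/- day 3, and Stmn1 had -1.76 and 1.88. Fam76a had 1.10 in WT and -1.01 in Ccr2-/-. Atp11a had 1.53 and -1.36, Tfam 1.32 and -1.19, Chchd6 -1.61 and 1.90, and Metap1 -1.56 and 1.75.

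A further 17 members had no pool and entered no comparison, 1 of them without an entry in the hashtag file and 16 with several hashtags. They had a median of 72677 reads, against 46452 in members with a pool. Their summed reads held 1248 CPM of H2-Aa, 409 CPM of Ccr2, 1018 CPM of Cbr2 and 9719.7 CPM of Selenop.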

How the results depend on the processing

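Of the values of shares and counts under the alternatives, 34 moved by more than the counting interval or 1.5 times and the others by less. Shares moved with the C1q limit only: at 1500 CPM the 2 WT shares were 5.33% and 17.3%, and at 6000 CPM 2.23% and 4.49% in WT and 0.660% and 0.436% in Ccr2-/- at days 3 and 5. Genes higher in WT at day 5 (85) became 168 without the filter, 173 with a pseudocount of 1 CPM, 131 by summed reads alone, 243 with thinned cells and 252 at a C1q limit of 6000 CPM, and those lower (40) became 118, 106, 130 and 171 under the last 4 and 63 without the deepest cells. Genes higher in Ccr2-/- on both days (24) became 49, 70 and 38 with the pseudocount, summed reads and thinning, and those lower (69) became 105 with thinning. Against Pdcd1lg2-positive cells, 45 higher became 123 at the C1q limit, and 36 lower became 55 with thinning and 119 at that limit. Against Gpnmb-positive cells, 228 higher became 426 without the filter, 398 with the pseudocount, 576 with thinning and 371 at the C1q limit, and 208 lower became 318 with the pseudocount, 404 by summed reads and 335 at the C1q limit. Against Lyve1-high cells, the 2 higher and 2 lower became 39 and 28 at the C1q limit, where 2 pools were compared in place of 4, and 1 and 1 without the deepest cells. Ctsk reversed at day 5, to a log2 ratio of -2.51 at the C1q limit. The cause of these moves was not tested, beyond the smaller number of cells that thinning and the higher C1q limit leave (15 and 11 Ccr2-/- members at 6000 CPM). Median-of-ratios scaling shifted the median of all genes by -0.11 and -0.12 between genotypes at days 3 and 5, by 0.15 and 0.14 against WT Lyve1-high cells and by -0.15 against Ccr2-/- day 3 Pdcd1lg2-positive cells, and turned no direction of a named gene. No paired analysis was possible because each genotype and day was 1 pool with no replicate number. Depth limits genes with few reads: 3 reads over all members of a pool came to 0.385 to 1.72 CPM.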

Other observations

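Among Ccr2-/- members, the chemokine gene Cxcl10 had 3.44 CPM at day 3 and 1306 CPM at day 5, and a single cell held 99.2% of the day 5 reads. The same pool had 365.9 CPM of the antiviral gene Rsad2, all of it in 1 member. Slc40a1, the gene of the iron exporter ferroportin, was higher at day 5 past the rule, at 100.5 CPM against 6.89 CPM, and a single cell held 77.9% of the day 5 reads. Hmox1, which encodes a haem-degrading enzyme, had 636, 964, 1252 and 1499.6 CPM in the 4 pools (WT first, by day).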
